A study of Drosophila melanogaster with 2 samples.

Results

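Eip74EF peaks were described at 10 genes of the muscle sarcomere, given by name: sls, bt, Mhc, Mlc2, Tm1, Tm2, up, wupA, Act57B and Act87E. All 10 were found among the 13945 protein-coding genes of the annotation. The data came from ChIP-seq, in which DNA bound by a protein is precipitated with an antibody and sequenced, on whole Drosophila melanogaster embryos of mixed sex, 8 to 16 h old. Both samples, biological replicates 1 and 3 of 1 group, were of the transgenic strain Eip74EF-GFP, which carries Eip74EF with an eGFP tag at its C terminus, and the labels' description names an antibody against GFP, while their antibody field names Eip74EF. The labels do not say what drives the fusion gene or whether the untagged gene is still present, and no untagged sample was among them. Whole embryos hold many tissues, so binding in few muscle cells and weak binding in many cells cannot be told apart, and peak lists hold no RNA levels with which tissue or stage could be checked.

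Eip74EF is an ETS-domain transcription factor induced by the steroid hormone ecdysone. The sarcomere is the contractile unit of muscle, in which thick filaments of myosin slide along thin filaments of actin, and it is assembled in the body wall muscles during the later part of embryogenesis. Troponin and tropomyosin on the thin filament make the sliding depend on calcium, and giant proteins of the titin type tie the filaments together. Of the members, Mhc encodes the muscle myosin heavy chain and Mlc2 the myosin regulatory light chain. Act57B and Act87E encode actins of muscle, Tm1 and Tm2 tropomyosins, up troponin T and wupA troponin I, while sls encodes the titin-type protein Sallimus and bt the related protein projectin.

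A peak's summit is the position of its highest enrichment. Each of the 4 deposited lists was searched within 500 bp of every transcription start site (TSS) of a gene, called its promoter here, and from the gene's first to its last annotated base, called its body. The pooled list and both replicate lists held 30000 peaks each. The list that had passed the authors' irreproducible discovery rate (IDR) step held 5004, with signals from 184.6 to 3792 and a median of 282.5. The IDR list is the strongest 5004 peaks of the pooled list, with the same summits and signals, so it is no independent support for them. Signal is the authors' own value per peak, and its scale differs between lists, so ranks within a list, 1 being the strongest, are given beside it. Read depth per sample is unknown, since the lists hold no read counts.

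Reproducible binding was found at the promoters of sls, Tm1 and Act87E. These were 3 of the 10 members, while 15.6% of all protein-coding genes had an IDR promoter summit. With 10 genes, 1 group and no control samples, the count is a description and was not tested. Genes with several TSSs had promoter summits more often, and read against genes of like TSS number the members stood on both sides. Among genes with 1 TSS, 10.3% had an IDR promoter summit, as did sls of the 3 members in that class. Among those with 2 to 3 TSSs the share was 27.0%, and Act87E of 3 members had one. Of genes with 4 to 5 TSSs, 52.6% had one, and neither Mhc nor Tm2 did. Of the 92 genes with 6 or more, 65.2% had one, as Tm1 did and up did not. Within gene bodies, 2 members had an IDR summit, Tm1 and Mlc2, against 13.4% of all genes. Longer genes had body summits more often. Under 5 kb the share was 5.08%, and Mlc2 of 3 members had one. From 5 to 10 kb it was 26.4%, and neither Tm2 nor up had one. From 10 to 20 kb it was 41.1%, and wupA had none. From 20 to 50 kb it was 50.3%, as Tm1 had one and Mhc did not. Over 50 kb it was 59.6%, and neither sls nor bt had one. In all, 6 IDR summits lay at the promoters or in the bodies of the 10 genes, and 3 of them were in Tm1. By place, 3 were promoter summits, 2 lay deeper in introns, 1 in a 3′ UTR and 0 in coding exons.

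The strongest summit belonged to sls. The gene spans 75.9 kb on the minus strand (FBgn0086906, 3L 2039681 to 2115611, dm6), and its 13 annotated transcripts start at 1 TSS. The summit at 3L 2115899 lay 288 bp upstream of that TSS with an IDR signal of 705.4, rank 444 of 5004. The replicate 1 list held it with a signal of 313 at rank 282, and the replicate 3 list with 401 at rank 593, their summits 12 and 20 bp away. It was thus near the top of both lists. The nearest TSS of another protein-coding gene, that of zormin, was 35801 bp away, so no other protein-coding gene starts near this summit.

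Act87E had the next strongest promoter summit. The gene is compact, at 2.39 kb on the plus strand (FBgn0000046, 3R 13425983 to 13428375), with 2 TSSs. Its summit at 3R 13425633 was 350 bp upstream of the TSS of transcripts RA and RC, with an IDR signal of 400.7 and rank 1347. The nearest replicate 1 summit, 79 bp away, had a signal of 140 (rank 1560), and the nearest of replicate 3, 43 bp away, had 269 (rank 1255), so both lists ranked it alike. Replicate 1 split the region, with a further summit 229 bp upstream of the TSS (87.5, rank 3758). A further IDR summit stood 124 bp past the other end of the gene, at 3R 13428499, with a signal of 225.0 and rank 3701. It counts neither as promoter nor as body, and its ranks were 7414 in replicate 1 and 2987 in replicate 3. No summit of any list lay between the first and the last base of Act87E. The noncoding gene lncRNA:CR45591 overlaps Act87E, and distances to the TSSs of noncoding genes were not measured.

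Tm1 held 3 IDR summits, all inside the gene. It spans 30.6 kb on the plus strand (FBgn0003721, 3R 15278220 to 15308779), with 18 transcripts from 8 TSSs. Its strongest IDR summit, at 3R 15281203 (signal 364.0, rank 1598), lay 168 bp upstream of the TSS of transcript RG. That window also takes in the TSSs of 10 further transcripts, 3 of which start at 15281532 and 7 at 15281550. Both replicate lists placed this summit within 1 bp, with a signal of 123 (rank 1997) in replicate 1 and 253 (rank 1415) in replicate 3. The other IDR summits were intronic and near the lower end of the IDR list. One at 3R 15286940 (signal 189.7, rank 4807) lay 521 bp downstream of the TSS of transcript RH, 21 bp outside the promoter window, and ranked 8039 in replicate 1 and 4507 in replicate 3. The other, at 3R 15293725 (signal 222.7, rank 3751), lay 2779 bp downstream of the nearest TSS. Replicate 1 had it 8 bp away at rank 2356, while the nearest of replicate 3 was 104 bp away, just outside the match distance of 100 bp, with a signal of 104.5 at rank 6166.

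The sequences within 50 bp of the IDR summits of sls, Act87E and Tm1 are shown. They are read 5′ to 3′ on the strand of the gene from the RefSeq sequence of assembly Release 6 (dm6). Not all were matched in both replicates, as the deep Tm1 intron summit had no replicate 3 summit within 100 bp. Capitals mark the 4-base ETS core GGAA or its reverse complement. The sls window is chr3L:2115849-2115949 (minus strand). The Act87E windows are chr3R:13425583-13425683 upstream of the gene and chr3R:13428449-13428549 past its end. Those of Tm1 are chr3R:15281153-15281253 for the promoter summit and chr3R:15286890-15286990 and chr3R:15293675-15293775 for the intronic ones, all on the plus strand.
sls promoter: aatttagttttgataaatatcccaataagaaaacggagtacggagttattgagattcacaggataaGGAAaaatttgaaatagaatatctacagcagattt
Act87E promoter: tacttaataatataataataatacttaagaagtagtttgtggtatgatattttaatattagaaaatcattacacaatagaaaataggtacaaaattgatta
Act87E past the gene end: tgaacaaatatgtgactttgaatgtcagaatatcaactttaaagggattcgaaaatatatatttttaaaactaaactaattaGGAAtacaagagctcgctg
Tm1 promoter: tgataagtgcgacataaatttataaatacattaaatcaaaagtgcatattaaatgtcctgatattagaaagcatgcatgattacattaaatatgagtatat
Tm1 intron, near RH: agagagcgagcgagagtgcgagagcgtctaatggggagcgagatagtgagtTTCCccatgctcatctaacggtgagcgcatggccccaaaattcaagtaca
Tm1 intron, deep: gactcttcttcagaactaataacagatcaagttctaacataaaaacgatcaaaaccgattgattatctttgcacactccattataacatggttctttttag

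The windows differed in composition and in strings. The ETS core stood once each in the sls promoter window, the Tm1 window near RH and the Act87E window past the gene end, and once in the window at the end of Mlc2. The 3 other windows, among them the promoter windows of Act87E and Tm1, held none. The core is common, being within 50 bp of 56.2% of all IDR summits. The longer ETS strings CGGAAG (7.31% of all IDR summits) and CCGGAAGT (0.759%) were in 0 of the 7 windows, and they were in 0 of the 35 windows from 250 bp upstream to 50 bp downstream of the members' TSSs, against 6.51% and 0.337% of 19607 such windows of all protein-coding genes. All strings were sought on both strands. The MEF2 consensus, bound by the muscle regulator Mef2, was within 50 bp of the Act87E promoter summit and of the Mlc2 summit, and of 6.99% of all IDR summits. In the TSS windows it was found at 6 members, bt, Mhc, Tm1, up, Act57B and Act87E (8 of 35 windows, against 13.2% of all). The TATA string TATAAA was in 11 of the 35 windows, at 7 members, against 42.2% of all windows. Among these it lay 27 bases upstream of the TSS of Mhc from which 14 transcripts start, 26 bases upstream of that of Act57B and 30 bases upstream of the first TSS of Act87E. GC content ran from 17.8% at the Act87E promoter summit through 23.8% at that of Tm1 and 28.7% at that of sls to 53.5% at the Tm1 intron summit near RH, against a mean of 35.9% over all IDR summits. The Tm1 window near RH also held the GAGAG string 3 times and the Mlc2 window held it once, against 12.8% of IDR windows with any. The Tm1 promoter window held TATAAA at 2 overlapping positions and the Mlc2 window held it once, against 20.1% of IDR windows. The string TAATTA was in 1 of the 7 windows, past the end of Act87E, against 9.69% of all, and CAGCTG (3.30%) and CATTTG (9.99%) were in none. In the TSS windows, TAATTA was in 8 of the 35 (18.9% of all windows), CAGCTG in 4 (17.9%), CATTTG in 5 (25.6%) and GAGAG in 15 (33.1%). These matches describe the letters in the windows and no more.

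**Figure D1:**
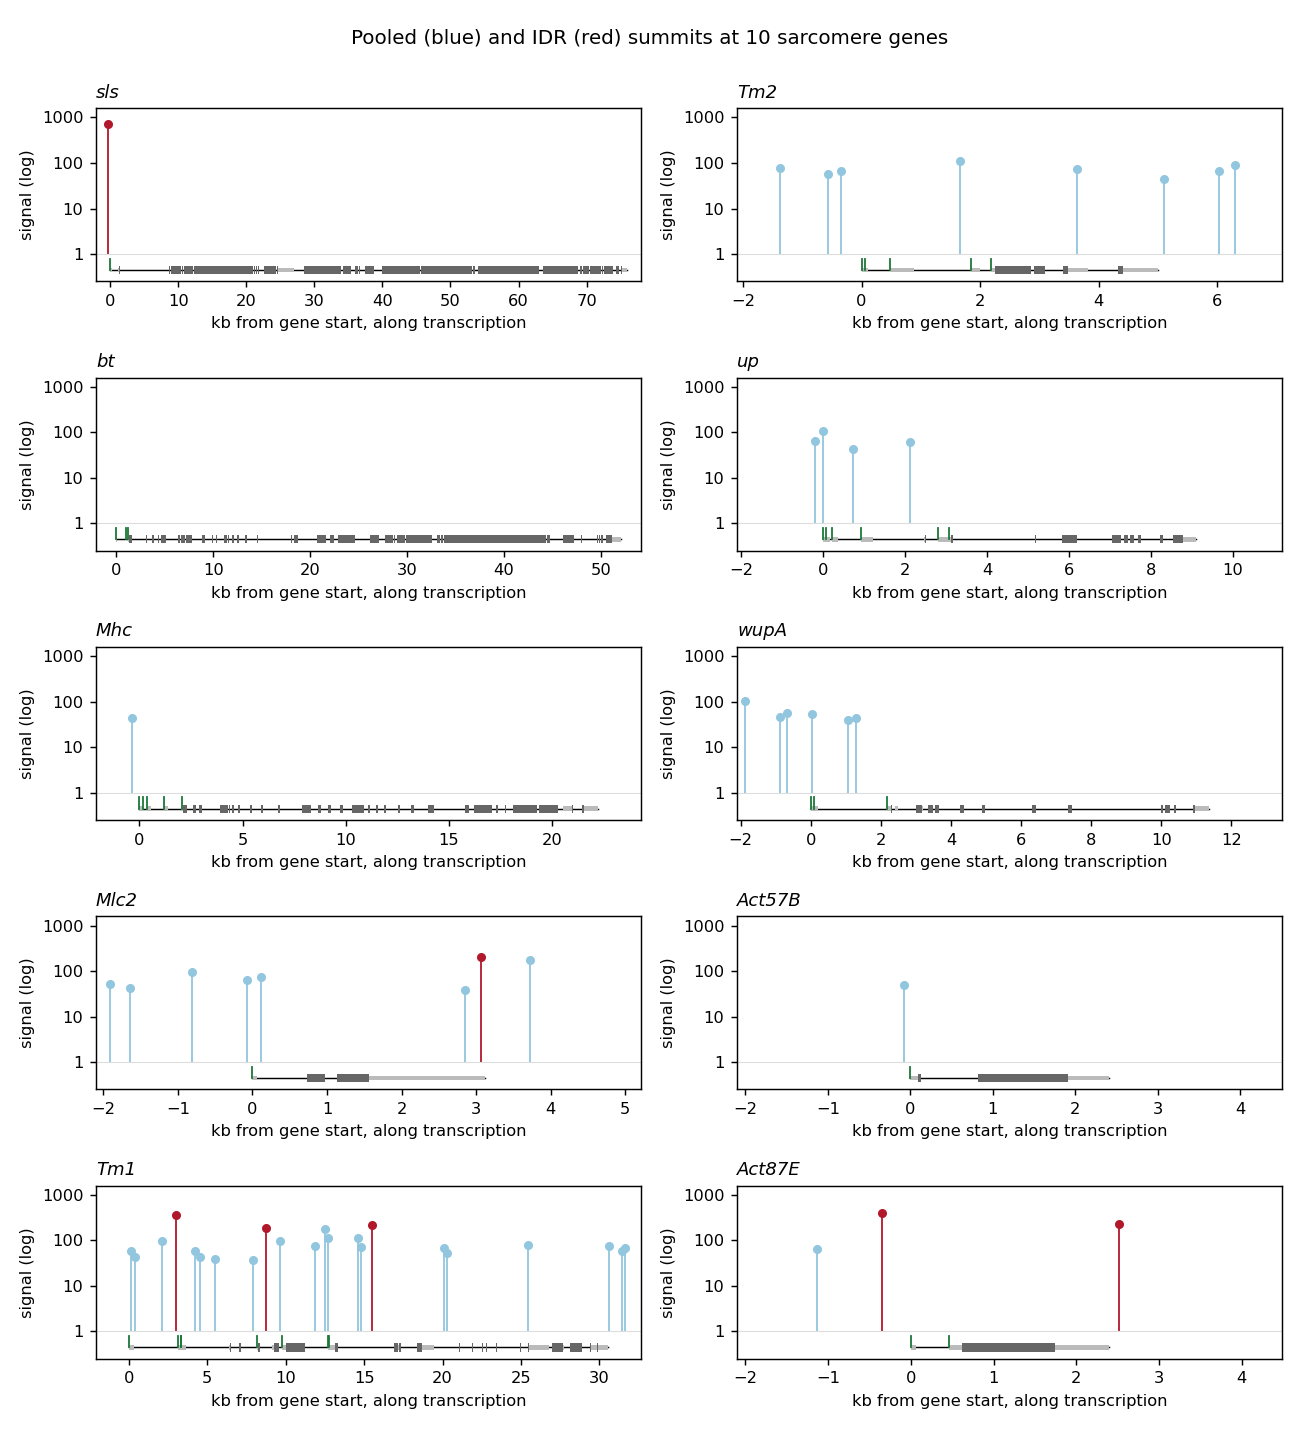
Pooled summits (blue) and those also in the IDR list (red) at each gene and up to 2 kb around it, by distance in kb from the gene's start along transcription and by signal on a log scale. Boxes are exons (dark grey: coding), green ticks are TSSs. IDR summits stand upstream of sls and Act87E, past the end of Act87E, at the end of Mlc2 and in introns of Tm1, and the bodies of sls, bt, Mhc and both actin genes are empty.

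The IDR summit in the body of Mlc2 stands at the neighbouring gene. Mlc2 is 3.11 kb long on the minus strand (FBgn0002773, 3R 30171438 to 30174551), with 1 TSS. The summit at 3R 30171486 (signal 200.6, rank 4419) was 3065 bp from that TSS and 48 bp from the end of the gene, in the 3′ UTR, but only 279 bp from the TSS of Rsod. Its replicate signals were 47.8 (rank 10036) in replicate 1 and 159 (rank 3187) in replicate 3. Near the Mlc2 TSS itself the lists held weaker summits. The pooled list had summits 120 bp downstream (signal 73.2, rank 16405) and 80 bp upstream (62.8, rank 19203), replicate 1 had 1 that was 41 bp downstream (37.2, rank 14177) and replicate 3 had 1 that was 121 bp downstream (30.8, rank 25513).

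The remaining promoters were reached only by peaks below the IDR list. In the pooled list 9 of the 10 members (90.0%) had a promoter summit, against 38.7% of all protein-coding genes, and bt had none. In replicate 1 the count was 7 of 10, against 47.2% of all genes, and in replicate 3 it was also 7, against 36.0%. Promoter summits of the pooled list were again more frequent in genes with more TSSs, with 30.5%, 58.1%, 85.1% and 91.3% of all genes called in the classes with 1, 2 to 3, 4 to 5 and 6 or more. Of the 35 distinct TSSs of the members, 5 had an IDR summit, 22 a pooled, 18 a replicate 1 and 16 a replicate 3 summit within 500 bp. Neighbouring TSSs often share a summit. No share over all TSSs stands beside these counts, so they cannot be read as high or low. Both replicate lists had promoter summits within 100 bp of each other at 5 members, sls, Mlc2, Tm1, Tm2 and Act87E, against 28.1% of all protein-coding genes.

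**Figure D2:**
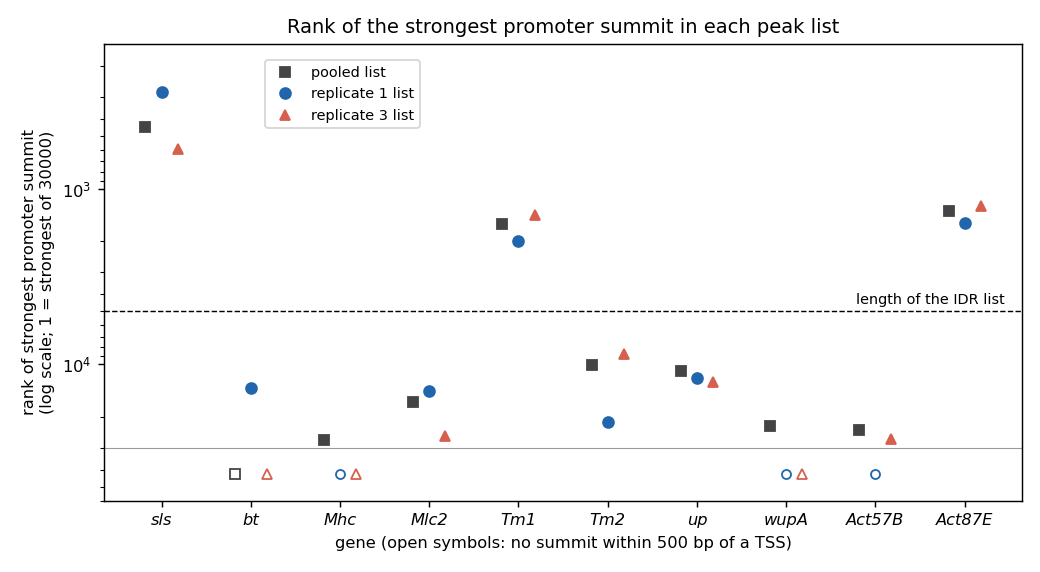
Rank of the strongest promoter summit of each gene in the pooled and replicate lists of 30000 peaks (log axis, strongest at the top); open symbols stand for genes with none. In all 3 lists sls, Tm1 and Act87E lie above the dashed line at rank 5004, and the other genes lie below it or have no summit.

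The tropomyosin gene Tm2 and the troponin genes up and wupA had such weaker promoter summits. Tm2 (FBgn0004117, 3R 15310193 to 15315197, 5 TSSs) lies just downstream of Tm1 on the same strand. Its strongest promoter summit, 180 bp upstream of the TSS of transcripts RB and RF at 3R 15311855, had a pooled signal of 110.2 and rank 10172. Replicate 1 held it at 26.1 (rank 21473) and replicate 3 at 80.7 (rank 8799), so it was much lower in the order of replicate 1. A summit 339 bp upstream of the first TSS had a pooled signal of 67.4 and was present in replicate 3 (67.7) but not in replicate 1. For up (FBgn0004169, X 13593474 to 13602578, minus strand, 6 TSSs), the pooled list held a summit at X 13602576, 2 bp from the first TSS, with a signal of 104.8 and rank 10868. Replicate 3 had a summit 8 bp from that TSS (60.9, rank 12663), and replicate 1 one 143 bp upstream of it (42.1, rank 12051). The closest promoter summits of both replicates were 151 bp apart. For the troponin I gene wupA (FBgn0283471, X 18105568 to 18116922, minus strand, 3 TSSs), the pooled list held 1 promoter summit, 27 bp from the first TSS (52.7, rank 22644), and neither replicate list had one. A stronger pooled summit lay 1862 bp upstream of that TSS, outside the window (105.4, rank 10805), with 86.9 in replicate 3 and 23.6 in replicate 1.

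By the strongest pooled promoter summit of each member, Mhc stood lowest, and bt had none. At Mhc (FBgn0264695, 2L 16766566 to 16788766, plus strand) 1 pooled summit lay 340 bp upstream of the first of 5 TSSs, with a signal of 43.0 and rank 27006 of 30000, and both replicate lists had none within 500 bp. The nearest replicate 1 summit was 604 bp and the nearest replicate 3 summit 4455 bp from a TSS of Mhc. At bt, on the fourth chromosome (FBgn0005666, 4 724400 to 776474, plus strand, 3 TSSs), only replicate 1 had a promoter summit, 170 bp upstream of the first TSS (38.4, rank 13617). The nearest pooled summit was 26710 bp and the nearest IDR summit 222765 bp from a bt TSS. Only 1.20% of protein-coding genes had their nearest IDR summit at least that far away, and the median over all of them was 8590 bp. Of the 80 protein-coding genes of the fourth chromosome, 8 had an IDR summit and 26 a pooled summit in the body, against 13.4% and 29.4% of all protein-coding genes.

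The actin genes of muscle differed. Act57B (FBgn0000044, 2R 20944021 to 20946431, plus strand, 1 TSS) is about as long as Act87E, at 2.41 kb. It had a pooled summit 72 bp upstream of its TSS with a signal of 50.3 and rank 23626, and replicate 3 had one 60 bp upstream (28.6, rank 27126) and one 166 bp downstream (29.1, rank 26769). A further replicate 3 summit 502 bp downstream (30.5, rank 25752) fell just outside the window. Replicate 1 had none within 500 bp of the Act57B TSS, its nearest being 3257 bp away. The pooled signal at the Act87E promoter was 400.7. The nearest IDR summit to Act57B was 4050 bp from its TSS. With 1 value per list no test of this difference was made, but the ranks of both promoters lie far apart in each list that holds them.

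Replicate 3 gave higher signals than replicate 1 at the 6 IDR summits in or next to the members that both lists held within 100 bp. At the deep Tm1 intron summit the order was the other way, with 112.8 in replicate 1 and 104.5 in replicate 3, a ratio of 0.926, at summits 96 bp from each other. Over the whole IDR list the median ratio of replicate 3 to replicate 1 was 1.78 over 4630 matched summits, with a 5% quantile of 1.09 and a 95% quantile of 3.09. The ratio was 1.28 at the sls promoter, 1.92 at that of Act87E and 2.06 at that of Tm1. The Act87E value pairs replicate summits that are each within 100 bp of the IDR summit, on either side of it, and the second replicate 1 summit there, which is nearer to that of replicate 3, gives 3.08. The ratio was 2.30 at the Tm1 intron summit near RH, 2.82 past the end of Act87E and 3.33 at the Mlc2 end. The last lies above the 95% quantile. Among weaker pooled summits the order also turned in places, as at the Mlc2 TSS (0.828) and at a Tm1 intron summit at 3R 15280302 (0.666).

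**Figure D3:**
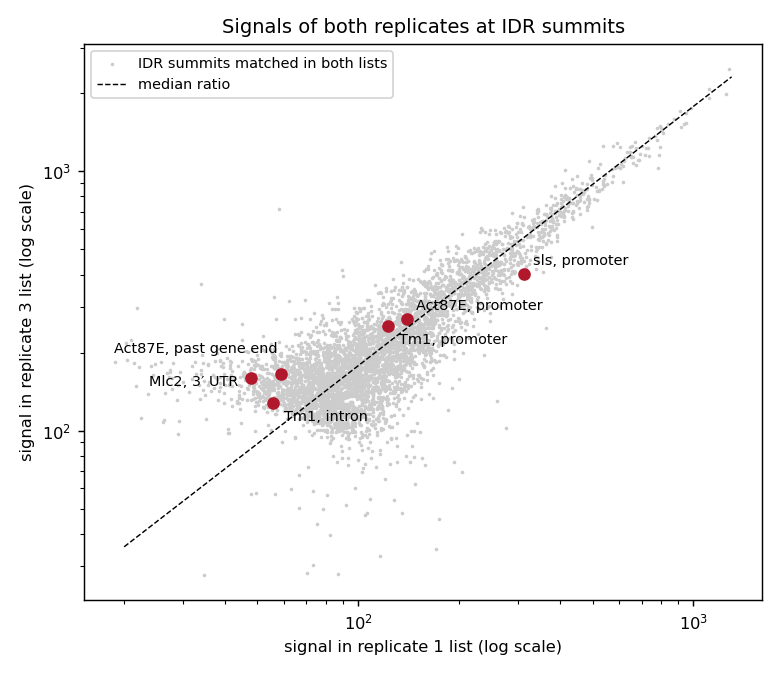
Signal in replicate 1 (x axis) and replicate 3 (y axis) at IDR summits matched within 100 bp in both lists (grey, 4630 summits; both axes log), with the matched summits at sarcomere genes in red and the median ratio of 1.78 dashed. The promoter summits of sls, Tm1 and Act87E lie along the main cloud, and those past the end of Act87E and in the 3′ UTR of Mlc2 at its replicate 3 side.

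The bodies of sls, bt and Mhc were nearly free of peaks although they are long. In the IDR and pooled lists all 3 had 0 summits, and in the replicate lists they had 0 apart from 1 replicate 1 summit in sls, 890 bp from its TSS, with a signal of 23.5 at rank 24004. Of all protein-coding genes, 29.4% had a pooled summit in the body, 35.2% a replicate 1 summit and 28.3% a replicate 3 summit. Long genes have them far more often. Of the 307 genes over 50 kb, 242 (78.8%) had a pooled summit in the body and 183 (59.6%) an IDR summit, so that sls and bt were among 65 (21.2%) with no pooled one. Of 706 genes from 20 to 50 kb, 74.5% had a pooled summit, as Tm1 did and Mhc did not.

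Much of sls and bt is coding sequence. Coding exons cover 73.0% of the 75.9 kb of sls and 51.7% of the 52.1 kb of bt, against a median of 4.54% over the genes longer than 50 kb. They ranked at places 2 and 5 by this share. Of the 12 such genes with a coding share over 20%, 3 had no pooled summit in the body, sls, bt and Muc14A. Others of high coding share did hold some, such as Ank2 with 65.9% coding and 1 pooled summit, and Msp300 with 61.9% coding and 26. The introns of sls add up to 16.9 kb, those of bt to 24.1 kb, those of Mhc to 13.1 kb and those of Tm1 to 20.8 kb. Of 875 protein-coding genes with 10 to 30 kb of introns, 228 (26.1%) had no pooled summit in the body, as was the case for 3 of these 4 members. Transposable elements cover 6.78% of sls and 4.16% of bt in the annotation. The part of coding share, repeats or chromosome in the empty bodies was not tested.

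Among the members, Tm1 stood at the other end. Its body held 19 pooled summits, 6.22 per 10 kb, and 8.69% of the 875 genes with 10 to 30 kb of introns had at least as many. Replicate 1 had 21 summits in it, which 4.23% of those genes reached, and replicate 3 had 13, which 24.6% reached. Its count of IDR summits was reached by 17.8% of them. Some pooled summits belong to overlapping peaks, such as those at 3R 15290728 and 15290942, so the count is not one of separate sites. Of the 37 pooled summits at promoters or in bodies of the 10 genes, 19 (51.4%) were in Tm1. Of these 19, 7 were within 500 bp of a Tm1 TSS, 11 lay deeper in introns and 1 in a coding exon. Several stand where other genes start. The summit at 3R 15290728 (pooled signal 178.0, rank 5296) was 216 bp upstream of the TSS of transcript RA and 71 bp from the TSS of CG45218, a gene inside Tm1 on the opposite strand. With a rank of 5296, it was just below the end of the IDR list. That at 3R 15278384 (58.1) was 164 bp from the first Tm1 TSS and 275 bp from that of MRG15, and the one at 15278591 (44.3) was 77 bp from a TSS of l(3)neo43. The IDR summit at the RG promoter had no TSS of another protein-coding gene nearer than 2535 bp.

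The bodies of the other genes held few pooled summits. Tm2 had 2, up 3 and wupA 3, and Mlc2 had 3, 2 of them at the Rsod end. Per 10 kb this was 9.63 for the short gene Mlc2, above the 6.22 of Tm1, and 3.29 for up and 2.64 for wupA, with Tm2 between up and Tm1. Their pooled signals ran from 38.1 to 110.2 apart from the 200.6 of the IDR summit in Mlc2. By count of genes, 5 of the 10 had a pooled summit in the body (29.4% of all protein-coding genes), 6 a replicate 1 summit (35.2%) and 5 a replicate 3 summit (28.3%). These shares are not adjusted for gene length. From 5 to 10 kb the pooled share was 53.2%, and both Tm2 and up had one. From 10 to 20 kb it was 67.3%, and wupA had one. From 20 to 50 kb it was 74.5%, and over 50 kb it was 78.8%, where Mhc, sls and bt had none. Under 5 kb, where the share was lowest, Mlc2 of 3 members had one. Read against genes of like length, the members stood on both sides.

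**Figure D4:**
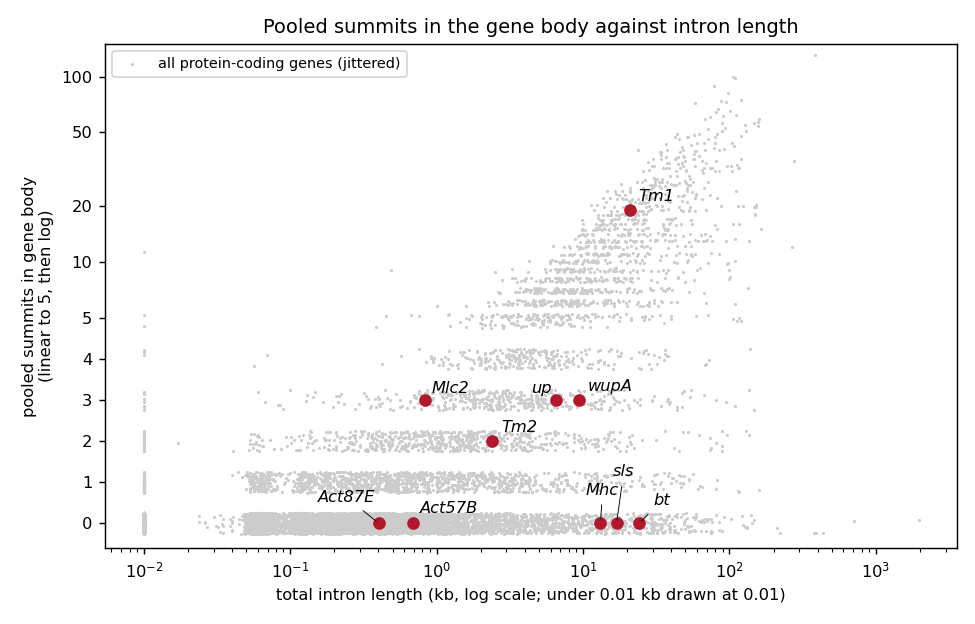
Pooled summits in the gene body (linear to 5, then log, jittered for grey points) against total intron length (kb, log) for all protein-coding genes (grey) and the sarcomere genes (red). Tm1 has 19 summits in 20.8 kb of introns, while sls, bt and Mhc have 0 in 16.9, 24.1 and 13.1 kb.

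Other genes of the sarcomere were listed for comparison. Of 24 listed symbols 23 were matched, and 5 of these (21.7%) had an IDR promoter summit and 7 (30.4%) an IDR summit in the body, against 15.6% and 13.4% of all protein-coding genes. These shares are not adjusted for gene length or number of TSSs. The promoters were those of tmod (signal 374.0), a capping protein of thin filaments, of Chd64 (290.9), a calponin-type protein, of Lasp (280.3), an actin-binding protein, of Zasp52 (212.4), a Z-disc protein, and of cher (194.1), the filamin that crosslinks actin. In bodies, tmod held 4 IDR summits and Lasp 3, followed by Zasp52, Zasp66 and cher with 2 each. In the pooled list 14 of the 23 (60.9%) had a promoter summit, against 38.7% of all genes, and the other 9 had no summit at the promoter or in the body. These were the actins Act79B and Act88F, the myosin light chain gene Mlc1, the troponin C genes TpnC25D, TpnC41C and TpnC4, and fln, Zasp67 and Mp20.

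Of 5 genes for cytoplasmic actin and non-muscle myosin, 3 had an IDR promoter summit, against 15.6% of all protein-coding genes. Act5C, a cytoplasmic actin gene, had 2, the stronger with a signal of 431.5, sqh, the light chain of non-muscle myosin, had 1 with 616.6, and zip, its heavy chain, 1 with 234.7. Act42A and Mlc-c had none. Act5C has 2 TSSs, zip 3 and sqh 4. Of all protein-coding genes with 2 to 3 TSSs, 27.0% had an IDR promoter summit, and of those with 4 to 5, 52.6% had one. Among 17 regulators of mesoderm and muscle, 3 (17.6%) had one, a share near the 15.6% of all protein-coding genes. They were tin (644.4), a homeobox gene of heart and dorsal mesoderm, Mef2 (241.1), which activates many genes of muscle differentiation, and sd (203.8), a TEAD-type transcription factor. At the tin promoter, replicate 1 had a summit with a signal of 221.4, while replicate 3 had none within 500 bp. In its body Mef2 held 6 IDR summits, the strongest with a signal of 529.0, and nau and how held 1 each. These were 3 of the 17 (17.6%), against 13.4% of all protein-coding genes. Mef2 (45.4 kb) and how (37.1 kb) are in the class from 20 to 50 kb, where 50.3% of genes had an IDR body summit. No count of these short lists was tested against the 10 genes.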

How the data were processed

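Eip74EF-GFP ChIP-seq peak lists of 2 replicates were analysed. Peaks were called by the authors on assembly dm6, per replicate and on both pooled, each against a control, and the IDR list was made from those calls, per the deposited file descriptions. The sources used here do not name the aligner, caller or IDR threshold. Each deposited peak has a signal value, the authors' enrichment over control on an unstated scale, and a −log10 q-value, which was not used. From these, summits were placed with Python 3.11.15 and pandas 2.3.3 on the Ensembl release 115 annotation, whose start codons read ATG in the RefSeq dm6 sequence in 99.9% of cases. Every transcript of a protein-coding gene gave a TSS. The age field of the labels was not usable as an age, and the stage was taken from the source name. The search was tested on planted summits. Depth is unknown and no test between groups was possible. The members and lists were chosen with earlier results of these data known. Named genes were all members, list genes with an IDR promoter summit or most IDR body summits, and genes with a TSS near a reported summit. Those listed with no pooled summit, Muc14A, Ank2 and Msp300 were named after their values were seen. Of the listed symbols, Unc-89 was not matched in the annotation. The core GGAA and the genes with 10 to 30 kb of introns were also added after seeing the data. Windows, match distances, list depth, merging, transcript choice and single replicates were varied.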

Additional observations from a re-analysis of the deposited data

How the results depend on the processing

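Promoter summits at sls, Tm1 and Act87E were found in the stronger 2502 IDR peaks (3 of 10 members, against 8.81% of all genes). The strongest 5004 peaks of either replicate alone also held them. With replicate 1 left out the count was 3 of 10, against 14.5% of all genes. With replicate 3 left out it was 3 of 10, against 18.1%. The same 3 members were found with a 1000 bp window (18.8% of all genes), with merged summits (15.6%) and with protein-coding transcripts only (15.6%). With a 250 bp window only Tm1 was left (1 of 10, against 12.2% of all genes), since the summits of sls and Act87E lie 288 and 350 bp from their TSSs. The count of members with an IDR summit in the body was 2, against 13.4% of all genes. It was 1 in the stronger 2502 peaks, against 8.27% of all genes. The number of body summits fell there from 4 to 1, because only the Tm1 promoter summit is in that part. Without replicate 1, 2 members had a body summit, against 13.1% of all genes, and the number of summits was 3. Without replicate 3, Mlc2 was lost, which left 1 member, against 13.8%, with 4 summits. With 2 kb added upstream, 4 members had one, against 24.7% of all genes, as the promoters of sls and Act87E then count. Of the 6 IDR summits, 5 had a match within 100 bp in both replicate lists, and 3 had one in the strongest 5004 of each. No paired analysis was possible because all samples form 1 group. The number of replicates and the unknown depth limit these values, and a summit missing from a list of 30000 may lie just below its end.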
